A study of Mus musculus with 12 samples.

Results

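Receptors for serotonin, noradrenaline and acetylcholine were compared between hippocampus and prefrontal cortex, and between mice of 2 genotypes. The members were the genes whose symbol in the platform annotation is Htr, Adra, Adrb or Chrm followed by a digit, or that of a nicotinic subunit (Chrna, Chrnb, Chrnd, Chrne or Chrng). Only probe sets with 1 symbol were used, and each gene was represented by its probe set with the highest mean over the 12 arrays. This gave 33 of the 18193 genes measured in the same way: 13 serotonin receptor genes, 2 adrenergic, 3 muscarinic and 15 nicotinic, of which 10 encode neuronal and 5 encode muscle-type subunits. A further 11 genes of these families in the reference annotation, among them Htr2a, Adrb1 and Chrm2, were not analysed here.

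The tissues came from female mice 38 to 40 weeks old, with 3 mice per genotype and 1 array per tissue piece. APPsα-DM mice carry a knock-in App allele on both chromosomes and lack APLP2, and APLP2-KO mice lack APLP2 and keep their normal App. The knock-in is known to encode only the soluble ectodomain of the amyloid precursor protein, without its membrane anchor. The deletion of APLP2 was thus shared by every group, the background was C57BL/6 after 6 generations of crossing, and no wild-type array was analysed here. The 4 groups of 3 arrays were APPsα-DM hippocampus, APLP2-KO hippocampus, APPsα-DM cortex and APLP2-KO cortex.

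Serotonin, noradrenaline and acetylcholine reach hippocampus and cortex through long axons from small groups of cells in the brainstem and basal forebrain, and the receptors on the receiving cells decide how each region responds. Most of these receptors act through G proteins: the Htr1 and Htr5 families, Adra2c and Chrm4 couple to inhibitory G proteins, Htr2, Adra1b, Chrm1 and Chrm3 to the phospholipase C pathway, and Htr4, Htr6 and Htr7 to adenylyl cyclase. Htr3a, Htr3b and the nicotinic subunits form ion channels instead.

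Promoter sequences are shown first for 4 of the receptor genes whose signal differed between the tissues in both genotypes. The signal of Htr2c and Chrna7 was higher in hippocampus, and that of Adra1b and Htr1f was lower. By the mean over both genotypes, these were the 2 largest rises and 2 largest falls among such genes with a promoter entry. Htr4 and Htr5b rose more but had no entry in the promoter set used. Each sequence is the 250 bases before the RefSeq transcription start, 5′ to 3′ on the gene's strand in build GRCm38.p6, and capitals mark CpG dinucleotides. Htr2c lies on the plus strand at chrX:146962263-146962512, Chrna7 on the minus strand at chr7:63212527-63212776, Adra1b on the minus strand at chr11:43901238-43901487 (the first of its 2 entries), and Htr1f on the minus strand at chr16:65105785-65106034.
Htr2c: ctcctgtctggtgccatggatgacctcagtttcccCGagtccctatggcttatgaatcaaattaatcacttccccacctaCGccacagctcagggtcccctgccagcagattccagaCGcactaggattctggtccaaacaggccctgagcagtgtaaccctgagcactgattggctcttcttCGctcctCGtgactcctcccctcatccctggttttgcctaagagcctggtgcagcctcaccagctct
Chrna7: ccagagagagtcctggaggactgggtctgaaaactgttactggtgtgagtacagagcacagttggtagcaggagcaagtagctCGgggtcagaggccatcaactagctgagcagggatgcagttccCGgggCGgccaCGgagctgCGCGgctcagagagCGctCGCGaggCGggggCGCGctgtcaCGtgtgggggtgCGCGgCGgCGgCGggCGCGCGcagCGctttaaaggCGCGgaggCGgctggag
Adra1b: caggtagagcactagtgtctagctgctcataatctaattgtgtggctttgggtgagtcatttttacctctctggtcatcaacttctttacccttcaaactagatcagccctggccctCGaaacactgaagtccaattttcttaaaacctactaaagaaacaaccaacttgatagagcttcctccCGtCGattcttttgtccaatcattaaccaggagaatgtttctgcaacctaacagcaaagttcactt
Htr1f: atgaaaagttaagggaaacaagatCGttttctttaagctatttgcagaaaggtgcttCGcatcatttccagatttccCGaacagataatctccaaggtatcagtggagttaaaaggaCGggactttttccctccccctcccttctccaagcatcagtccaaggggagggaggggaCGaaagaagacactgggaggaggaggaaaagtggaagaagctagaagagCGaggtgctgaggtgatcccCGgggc
The Chrna7 promoter stood apart from the other three in base composition, with 25 CpG dinucleotides and 67.2% G+C. The Htr1f window held 7 CpG and 49.2% G+C, that of Htr2c 5 and 55.6%, and that of Adra1b 3 and 41.6%. The median over the 25 members with a promoter entry was 6 CpG and 56.8% G+C, beside 6 CpG and 52% G+C over 27025 genes. Motifs were searched on both strands by exact match. The GC box GGGCGG was in 8 of the 25 windows, Chrna7 among them, and in 32.9% of all windows; the TATA box TATAAA was in 1 of 25 and in 13.0% of all. The core TGACG of the cAMP response element was in 4 of 25 and in 17.9% of all, and the E-box CACGTG in 2 of 25 and in 6.05% of all.

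The deposited values are log2 signals of probe sets after robust multi-array averaging (RMA), and differences were tested with limma over all 45037 probe sets, with Benjamini-Hochberg adjustment and a threshold of 0.05 on the adjusted p. App itself read 11.46 to 11.83 in the 6 APPsα-DM arrays and 13.38 to 13.50 in the 6 APLP2-KO arrays, so the genotype labels were matched by every array. The tissue labels were matched as well: of 7 dentate gyrus markers, 6 were higher in hippocampus in each genotype, as were 7 of 10 markers of the CA fields, and of 12 markers of neocortical layers, 8 were lower in APPsα-DM and 9 in APLP2-KO hippocampus, where 1 was higher. The pieces held other tissue too. All 12 measured markers of striatum were lower in hippocampus in both genotypes, with a mean level of 7.58 to 7.74 in APPsα-DM hippocampus and 7.45 to 7.78 in APLP2-KO hippocampus, against 9.50 to 10.07 in APPsα-DM cortex and 9.45 to 9.86 in APLP2-KO cortex. Markers of choroid plexus varied from piece to piece, and Ttr, its most abundant transcript, read 10.63 to 14.36 in hippocampus and 8.20 to 14.18 in cortex, where APPsα-DM cortex 2 (14.18) and APLP2-KO cortex 3 (14.03) stood far above the other pieces (8.20 to 9.42). In tissue pieces, fewer cells of a type and less RNA per cell cannot be told apart.

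Of the 33 receptor genes, 14 had a mean signal above the median probe set (5.89), and 3 lay above the upper quartile of probe sets (8.02). These 3 were Chrm1, the main muscarinic receptor of forebrain pyramidal cells, with a mean of 10.03, Htr2c, with 9.26, and Chrna7, the subunit of the homomeric nicotinic receptor bound by alpha-bungarotoxin, with 8.83. Another 14 lay between the lower quartile (4.23) and the median, and 5 below the lower quartile: Chrnb1, Chrna9, Chrm4, Htr3b and Chrnb3. The brightness of a probe set depends on its probes as well as on the amount of RNA, so this order is not an order of RNA amounts between genes. Low members such as Chrna9, known from the hair cells of the inner ear, and Chrnb1, the beta subunit of the muscle receptor, lay below the lower quartile, and small differences in them have little signal behind them.

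**Figure D1:**
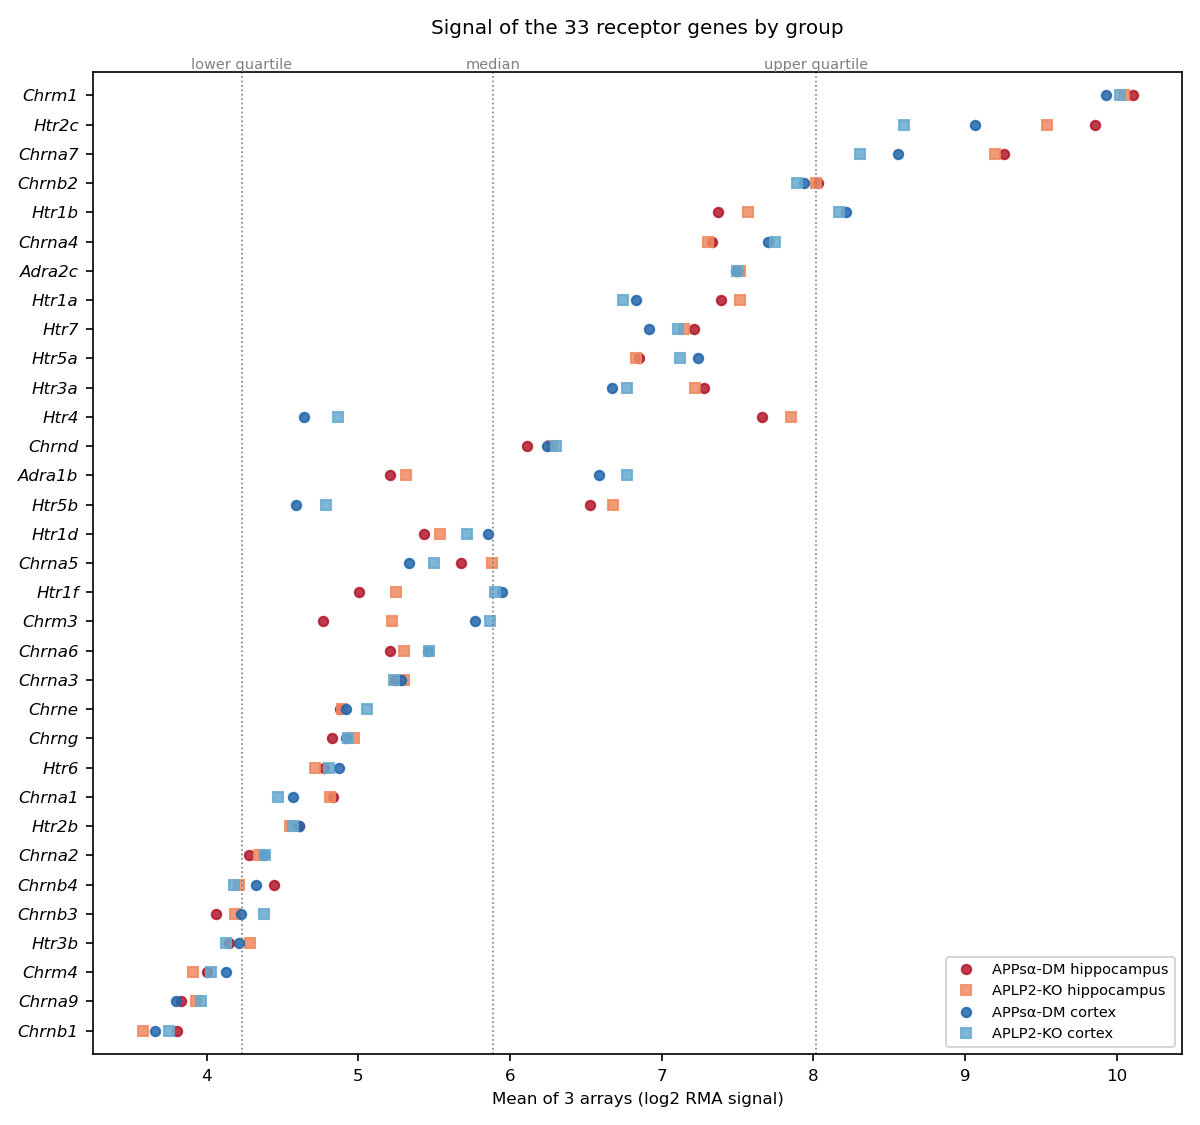
Mean log2 signal (RMA) of the 33 receptor genes in each of the 4 groups, ordered by the mean over the 12 arrays; each point is the mean of 3 arrays, and dotted lines mark the quartiles of all probe sets. Chrm1, Htr2c and Chrna7 lie above the upper quartile of all probe sets, 8.02, and Htr4 and Htr5b show the widest gap between hippocampus and cortex.

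Hippocampus and cortex differed in 12 of the 33 receptor genes in APPsα-DM mice and in 11 in APLP2-KO mice. In APPsα-DM mice 6 members were higher in hippocampus and 6 lower, beside 6.59% of all genes higher and 7.34% lower. In APLP2-KO mice 7 were higher and 4 lower, beside 6.78% and 9.7% of all genes. Without APLP2-KO cortex 3, 1 of the arrays high in Ttr, 7 of these calls were left, 5 higher and 2 lower. A total of 9 members were called in both genotypes in the same direction: Htr4, Htr5b, Htr2c, Chrna7, Htr1a and Htr3a were higher in hippocampus, and Adra1b, Htr1f and Htr1b were lower. Of the other members, 19 passed the threshold in neither genotype. The median difference over the members was close to 0 (-0.04 in APPsα-DM and -0.02 in APLP2-KO mice), as it was over all genes (-0.02 and -0.01). The 2 comparisons use different arrays of the same 4 groups, and the difference between them passed the threshold for no member (adjusted p at least 0.9998), so no member is shown to differ between tissues in 1 genotype more than in the other.

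**Figure D2:**
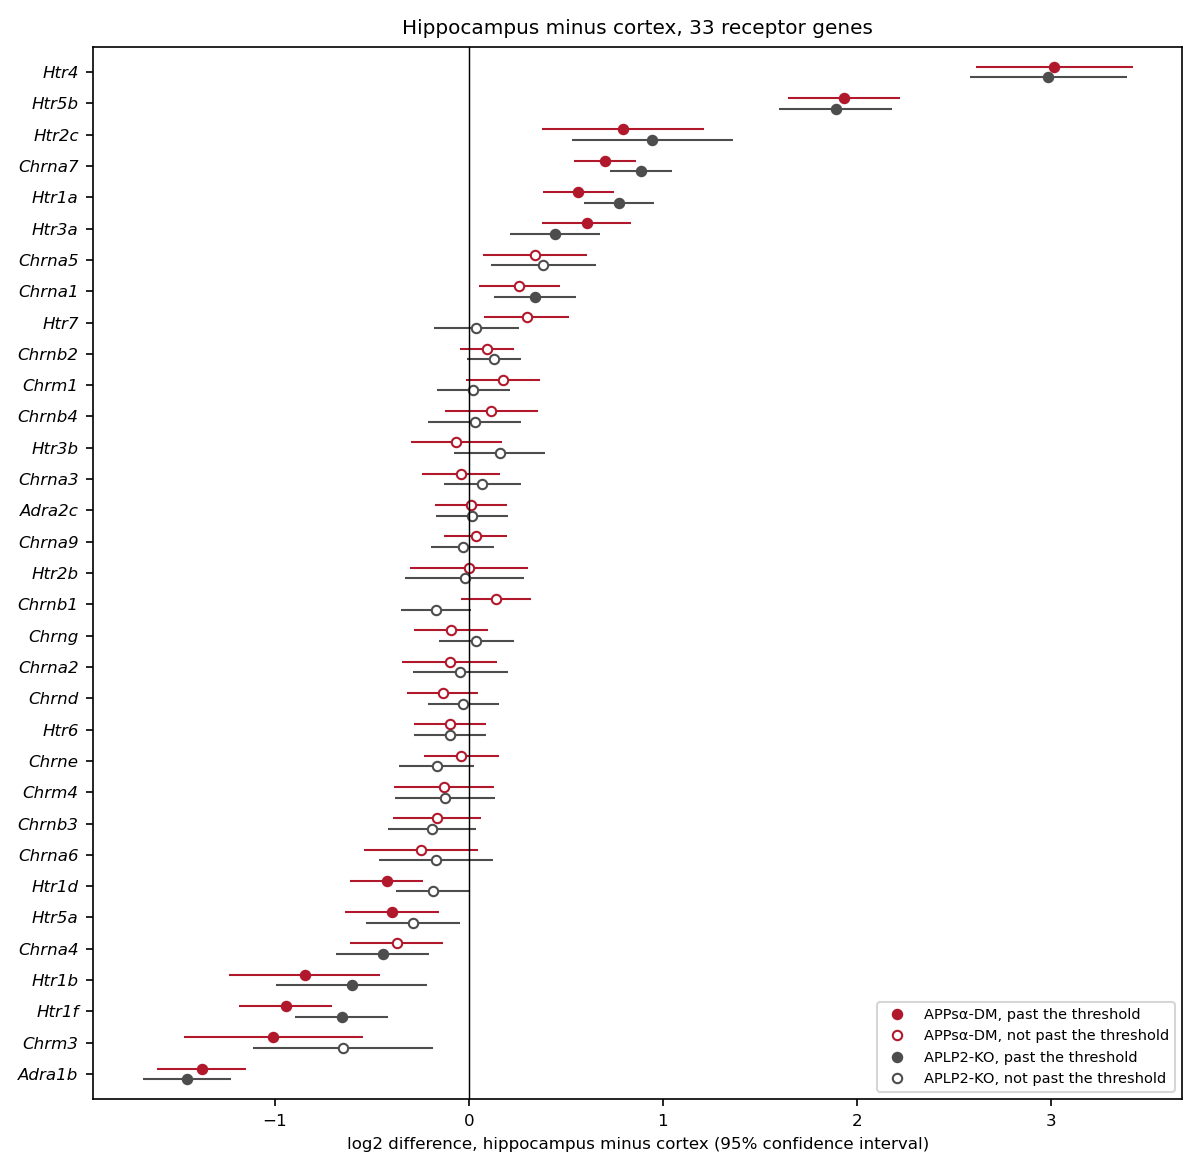
Difference in log2 signal, hippocampus minus cortex, of the 33 receptor genes in APPsα-DM and APLP2-KO mice, with 95% confidence intervals from limma (3 arrays a group) and filled points past the threshold. Htr4 and Htr5b lie farthest to the side of hippocampus and Adra1b farthest to the side of cortex, at nearly the same place in both genotypes.

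Among receptors coupled to adenylyl cyclase, Htr4, which raises excitability and transmitter release in hippocampus, had the largest difference of all members. It read 7.76, 7.68 and 7.54 in APPsα-DM hippocampus, against 4.91, 4.27 and 4.75 in APPsα-DM cortex. The APLP2-KO values were 7.85, 7.77 and 7.93 in hippocampus, against 5.32, 4.73 and 4.55 in cortex. The tissues did not overlap, with every hippocampus array more than 2 log2 units above every cortex array. The difference was 3.02 ± 0.19 (SE; 8.10-fold, adjusted p = 6e-07) in APPsα-DM and 2.99 ± 0.19 (7.93-fold, adjusted p = 5.82e-07) in APLP2-KO mice. A second, dim Htr4 probe set differed by 0.21 and 0.34, which did not pass, and the mean of both probe sets by 1.61 and 1.66. With the probe sets used, the other receptors of this class did not pass in either genotype. Htr6, a target of drugs tested for cognition, differed by -0.10 in both. Htr7, a receptor studied in circadian timing, differed by 0.30 (adjusted p = 0.0869) in APPsα-DM and 0.04 in APLP2-KO mice. A second, dimmer Htr7 probe set passed in APPsα-DM mice (0.29) and not in APLP2-KO mice (0.19).

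The Htr1 and Htr5 families, which couple to inhibitory G proteins, went in both directions. Htr5b, a receptor of rodents whose human counterpart is a pseudogene, read 6.32, 6.70 and 6.56 in APPsα-DM hippocampus, against 4.44, 4.61 and 4.73 in cortex. In APLP2-KO mice it read 6.63, 6.61 and 6.79 in hippocampus, against 4.62, 4.65 and 5.09 in cortex. The tissues did not overlap, and the differences were 1.93 ± 0.13 (3.82-fold, adjusted p = 1.48e-06) and 1.89 ± 0.13 (3.71-fold, adjusted p = 1.58e-06) in APPsα-DM and APLP2-KO mice. Htr1a, the receptor through which serotonin hyperpolarises hippocampal pyramidal cells and silences its own neurons, was higher in hippocampus too. Its values were 7.35, 7.43 and 7.40 in APPsα-DM hippocampus, against 6.96, 6.67 and 6.86 in cortex. They were 7.54, 7.52 and 7.49 in APLP2-KO hippocampus, against 6.62, 6.76 and 6.85 in cortex. All hippocampus arrays lay above all cortex arrays, by 0.57 ± 0.08 (1.48-fold, adjusted p = 0.000696) in APPsα-DM and 0.77 ± 0.08 (1.71-fold, adjusted p = 5.13e-05) in APLP2-KO mice.

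Htr1b and Htr1f went the other way. Htr1b, which sits on axon terminals and limits transmitter release, read 7.60, 7.16 and 7.35 in APPsα-DM hippocampus, against 8.24, 7.93 and 8.47 in APPsα-DM cortex. It read 7.93, 7.54 and 7.24 in APLP2-KO hippocampus, against 8.35, 8.14 and 8.02 in APLP2-KO cortex. The groups did not overlap, but the gap between the closest arrays in APLP2-KO mice was small: the difference was -0.84 ± 0.18 (1.80-fold lower, adjusted p = 0.00829) in APPsα-DM and -0.60 ± 0.18 (1.52-fold lower, adjusted p = 0.0452) in APLP2-KO mice. The APLP2-KO call was lost without any 1 of APLP2-KO cortex 1, 2 or 3, APLP2-KO hippocampus 2 or 3, APPsα-DM cortex 1 or APPsα-DM hippocampus 3 (adjusted p = 0.0571 to 0.176). The other Htr1b probe set differed by -0.06 and -0.13, not past the threshold, and the mean of both by -0.45 (adjusted p = 0.0255) and -0.37 (adjusted p = 0.0584). Htr1f, a receptor bound by some migraine drugs, read 5.27, 4.84 and 4.89 in APPsα-DM hippocampus, against 6.00, 5.91 and 5.93 in cortex. In APLP2-KO hippocampus it read 5.44, 5.16 and 5.16, against 5.84, 5.92 and 5.95 in cortex. The hippocampus arrays were lower without overlap, by -0.94 ± 0.11 (1.92-fold, adjusted p = 0.000115) in APPsα-DM and -0.66 ± 0.11 (1.57-fold, adjusted p = 0.00154) in APLP2-KO mice.

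Htr1d and Htr5a were lower in hippocampus of APPsα-DM mice. Htr1d, a close relative of Htr1b, differed by -0.42 ± 0.09 (1.34-fold lower, adjusted p = 0.00711) in APPsα-DM and by -0.18 ± 0.09 in APLP2-KO mice, where it did not pass (adjusted p = 0.221). A second Htr1d probe set fell by 1.27 in APPsα-DM (adjusted p = 0.0032) and by 1.73 in APLP2-KO hippocampus (adjusted p = 0.000282). The mean of its 3 probe sets differed by -0.82 (adjusted p = 0.00109) and -0.76 (adjusted p = 0.00158), so that Htr1d was then called in both genotypes. Htr5a differed by -0.39 ± 0.11 (1.31-fold lower, adjusted p = 0.0413) in APPsα-DM and by -0.29 in APLP2-KO mice (adjusted p = 0.128). That call was lost without any 1 of the APLP2-KO cortex arrays, APLP2-KO hippocampus 2, APPsα-DM cortex 1 or 3 or APPsα-DM hippocampus 1 or 3 (adjusted p = 0.0541 to 0.156). With the choroid plexus level as a covariate Htr5a differed by -0.26 (adjusted p = 0.163). The striatal markers reported above moved with these lower receptors, since they were lower in hippocampus in both genotypes, and their part in the differences was not tested.

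Htr3a, the subunit that every serotonin-gated channel contains and that marks a class of inhibitory interneurons, was higher in hippocampus. The values were 7.37, 7.13 and 7.35 in APPsα-DM hippocampus, against 6.79, 6.48 and 6.75 in cortex. They were 7.27, 7.19 and 7.19 in APLP2-KO hippocampus, against 6.98, 6.66 and 6.69 in cortex. Hippocampus lay above cortex without overlap in both, by 0.61 ± 0.11 (1.52-fold, adjusted p = 0.00228) and 0.44 ± 0.11 (1.36-fold, adjusted p = 0.0147) in APPsα-DM and APLP2-KO mice. The APLP2-KO call was lost without APLP2-KO cortex 2 (adjusted p = 0.0661) or APLP2-KO cortex 3 (adjusted p = 0.0588). Of 12 interneuron markers, 1 was higher and 4 were lower in hippocampus of APPsα-DM mice, beside 6.59% and 7.34% of all genes. In APLP2-KO mice 2 were higher and 4 lower, beside 6.78% and 9.7% of all genes. Adarb2, a marker of interneurons from the caudal ganglionic eminence, was higher in both, by 0.76 (adjusted p = 0.0019) and 0.70 (adjusted p = 0.00277). The 4 lower markers were Vip, Npy, Pvalb and Slc32a1 in both genotypes. Vip differed by -0.83 (adjusted p = 0.000381) in APPsα-DM and -1.12 (adjusted p = 2.95e-05) in APLP2-KO mice. The mean over the 12 markers was 9.85 to 9.92 in APPsα-DM and 9.78 to 9.81 in APLP2-KO hippocampus, against 9.98 to 10.18 in APPsα-DM and 9.93 to 9.99 in APLP2-KO cortex, and the part of these cells in the Htr3a difference was not tested. Htr3b, which lies next to Htr3a on chromosome 9 and encodes its partner subunit, was dim (mean 4.19) and differed by -0.06 and 0.16, not past the threshold.

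**Figure D3:**
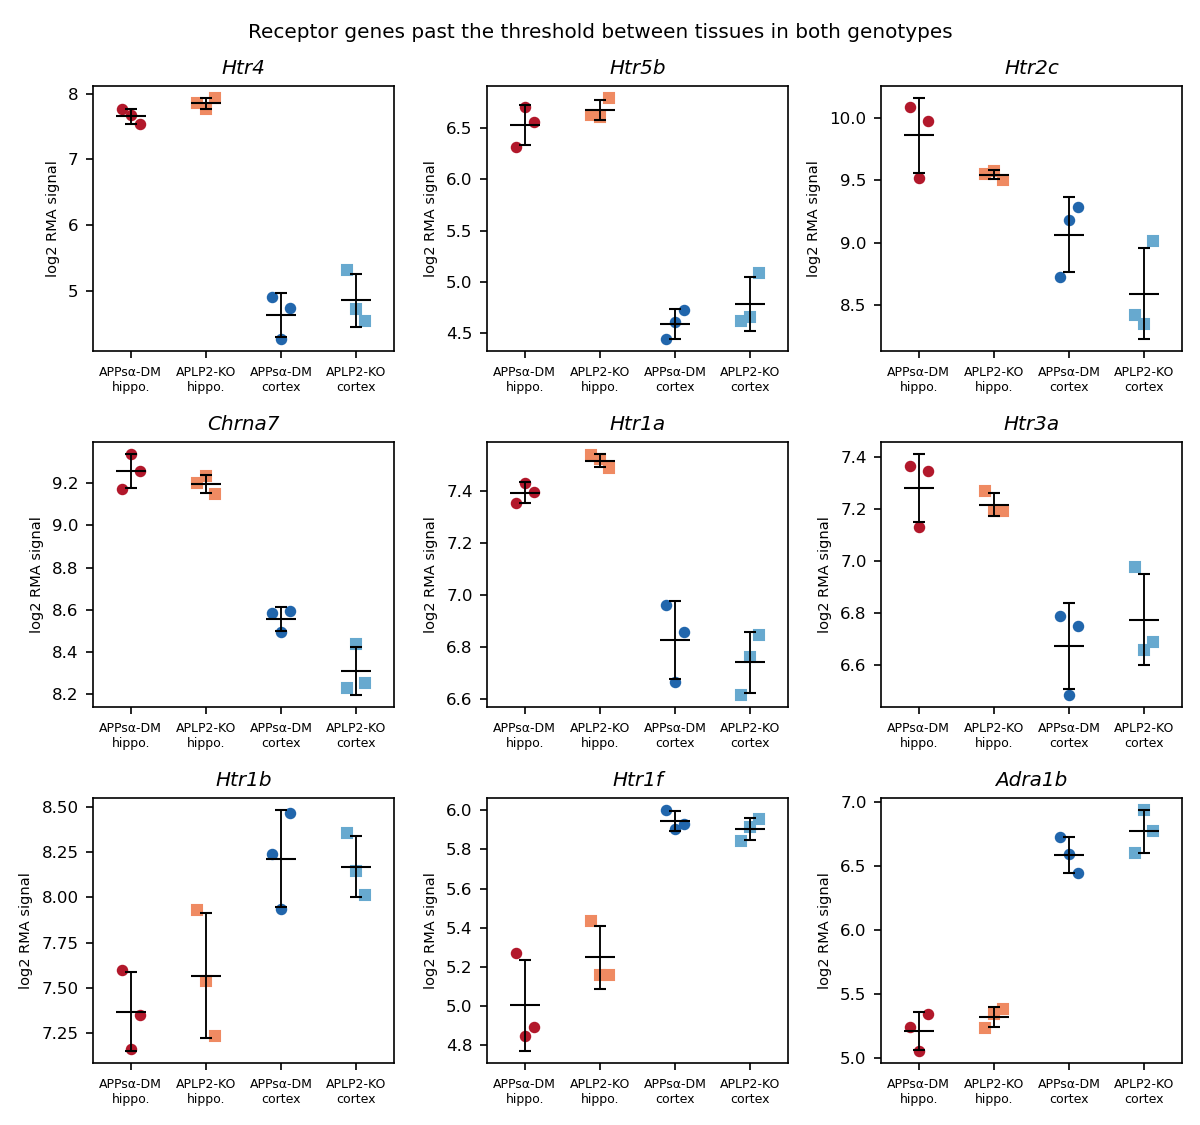
Log2 signal (RMA) on each of the 12 arrays of the receptor genes that differed between tissues in both genotypes, with hippocampus left of cortex and APPsα-DM left of APLP2-KO. Points are single arrays, and bars give the group mean with its SD; for each gene shown, no hippocampus array overlaps a cortex array of its genotype.

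Htr2c, the serotonin receptor known for its dense expression in choroid plexus as well as in neurons, was higher in hippocampus. It read 10.08, 9.52 and 9.97 in APPsα-DM hippocampus, against 8.72, 9.19 and 9.28 in cortex. The APLP2-KO arrays gave 9.55, 9.57 and 9.50 in hippocampus, against 8.42, 8.35 and 9.01 in cortex. The tissues did not overlap within a genotype, and the differences were 0.79 ± 0.19 (1.73-fold, adjusted p = 0.0181) in APPsα-DM and 0.95 ± 0.19 (1.93-fold, adjusted p = 0.00536) in APLP2-KO mice. A second Htr2c probe set gave 0.69 and 0.99, past the threshold in both.

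Choroid plexus markers were high on some of the arrays on which Htr2c was high. The mean over 14 measured markers was 8.37, 5.68 and 7.97 in APPsα-DM hippocampus and 5.46, 6.23 and 7.31 in APLP2-KO hippocampus. In cortex it was 4.90, 7.36 and 4.99 in APPsα-DM and 4.85, 4.85 and 6.95 in APLP2-KO mice. The 3 highest of the 6 cortex values of Htr2c included both cortex arrays high in Ttr. The highest, 9.28, was on APPsα-DM cortex 3, where the marker mean was 4.99. In hippocampus the 2 APPsα-DM arrays with the highest marker levels also had the highest Htr2c. In APLP2-KO hippocampus the array with the highest marker mean, 7.31, had the lowest Htr2c, 9.50. The marker mean was 1.59 above cortex in APPsα-DM hippocampus and 0.78 above it in APLP2-KO hippocampus, with 14 and 13 of the 14 markers above 0 and none past the threshold. The exact permutation p of the mean was 0.2 and 0.5, in a design that allows no p below 0.1. With the marker level as a covariate, the Htr2c difference was 0.54 in APPsα-DM mice (adjusted p = 0.0721), so that the call was lost, and 0.82 in APLP2-KO mice (adjusted p = 0.00375). Without the 2 cortex arrays high in Ttr it was 0.85 (adjusted p = 0.0155) and 1.16 (adjusted p = 0.00235). The APPsα-DM call was also lost without cortex 1 (0.62, adjusted p = 0.0790), without hippocampus 1 (0.68, adjusted p = 0.0739) and without hippocampus 3 (0.74, adjusted p = 0.0713).

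**Figure D4:**
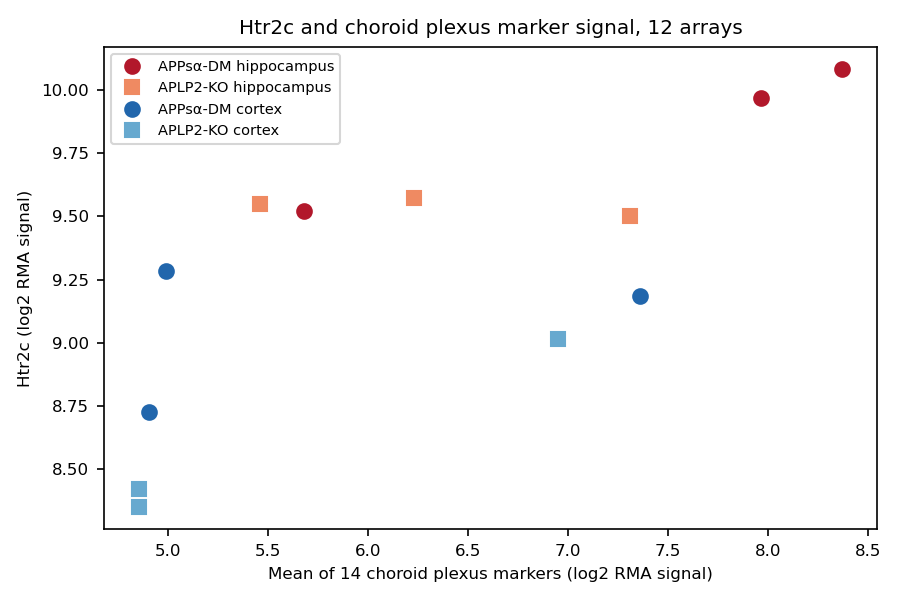
Log2 signal of Htr2c (vertical axis) against the mean log2 signal of 14 choroid plexus markers (horizontal axis), 1 point per array, by group. Each hippocampus point lies above every cortex point of its genotype, and the cortex arrays high in Ttr lie to the right, with 7.36 and 6.95 on the horizontal axis.

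Of the adrenergic receptors, Adra1b, which raises intracellular calcium in response to noradrenaline, was lower in hippocampus. It read 5.24, 5.05 and 5.34 in APPsα-DM hippocampus, against 6.72, 6.59 and 6.44 in APPsα-DM cortex. It read 5.23, 5.34 and 5.38 in APLP2-KO hippocampus, against 6.60, 6.93 and 6.77 in APLP2-KO cortex. The tissues were more than 1 log2 unit apart, and the differences were -1.38 ± 0.10 (2.60-fold lower, adjusted p = 3.48e-06) and -1.45 ± 0.10 (2.73-fold lower, adjusted p = 1.97e-06) in APPsα-DM and APLP2-KO mice. Adra2c, an autoreceptor on noradrenergic terminals that striatal neurons also use, differed by 0.01 in APPsα-DM and 0.02 in APLP2-KO mice, with 95% confidence intervals of -0.18 to 0.20 and -0.17 to 0.20.

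Of the muscarinic receptors, Chrm3, which activates phospholipase C, was lower in APPsα-DM hippocampus. It read 5.10, 4.31 and 4.88 there, against 5.91, 5.50 and 5.91 in APPsα-DM cortex, a difference of -1.01 ± 0.21 (2.01-fold lower, adjusted p = 0.0082). The APLP2-KO arrays read 5.24, 5.10 and 5.33 in hippocampus, against 5.47, 6.25 and 5.89 in cortex. They did not overlap either, but the difference of -0.65 ± 0.21 did not pass (adjusted p = 0.0694). With the replicate number as a block, which treats same-numbered tissues as paired, it did (adjusted p = 0.0293). It also did without APLP2-KO cortex 1 (adjusted p = 0.0238) or APPsα-DM hippocampus 2 (adjusted p = 0.0321). Chrm1 differed by 0.18 and 0.02 and Chrm4, an inhibitory receptor of striatal neurons, by -0.13 and -0.12, none past the threshold.

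Among the neuronal nicotinic subunits, Chrna7 was higher in hippocampus. It read 9.18, 9.34 and 9.26 in APPsα-DM hippocampus, against 8.59, 8.49 and 8.59 in cortex. The APLP2-KO values were 9.20, 9.24 and 9.15 in hippocampus, against 8.23, 8.44 and 8.25 in cortex. The arrays were tight and did not overlap, and the difference was 0.70 ± 0.07 (1.63-fold, adjusted p = 5.04e-05) in APPsα-DM and 0.89 ± 0.07 (1.85-fold, adjusted p = 6.32e-06) in APLP2-KO mice. A second Chrna7 probe set differed by 0.43 and 0.36 in the same direction and did not pass. Chrna4, which with Chrnb2 forms the main high-affinity nicotine receptor of the brain, was lower in APLP2-KO hippocampus (-0.44 ± 0.11, 1.36-fold, adjusted p = 0.0189), with a difference of -0.37 ± 0.11 in APPsα-DM mice just short of the threshold (adjusted p = 0.0519). The APLP2-KO call was lost without APLP2-KO cortex 2 or 3 or APLP2-KO hippocampus 3 (adjusted p = 0.0684 to 0.0754). The APPsα-DM difference passed without APLP2-KO hippocampus 1 or 3 or APPsα-DM cortex 2 (adjusted p = 0.0217 to 0.0482), and in 7 of 21 alternative fits in all. Chrnb2 itself differed by 0.09 and 0.13.

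Chrna5, an accessory subunit, differed by 0.34 (adjusted p = 0.109) and 0.39 (adjusted p = 0.0633), while a second probe set of it passed in APPsα-DM (0.95, adjusted p = 0.000758) and not in APLP2-KO mice (0.46, adjusted p = 0.0515). Chrna5 lies in 1 cluster on chromosome 9 with Chrna3 and Chrnb4, the subunits of the ganglionic receptor that is also dense in the medial habenula. Chrna3 differed by -0.04 and 0.07 and Chrnb4 by 0.12 and 0.03. Chrna6 and Chrnb3, neighbours on chromosome 8 that dopamine neurons use, differed by -0.25 and -0.17 and by -0.16 and -0.19, none past the threshold. The same held for Chrna2, a subunit used by a class of hippocampal interneurons (-0.10 and -0.04), and for Chrna9 (0.04 and -0.03).

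The muscle-type subunits, known from the junction between nerve and muscle, were dim apart from Chrnd (mean 6.23). Chrna1, the subunit that carries the acetylcholine site in muscle, was higher in APLP2-KO hippocampus by 0.34 ± 0.10 (1.27-fold, adjusted p = 0.0372) and did not pass in APPsα-DM mice (0.26, adjusted p = 0.119). With the replicate block the APLP2-KO call was lost (adjusted p = 0.0723), as it was without any 1 of the APLP2-KO hippocampus arrays, APLP2-KO cortex 2 or 3 or APPsα-DM cortex 3 (adjusted p = 0.05004 to 0.149). It was lost in 11 of 20 alternative fits in all. Chrnb1, Chrnd, Chrne and Chrng differed by at most 0.17 in size in either genotype, and none passed. Over the 19 members with more than 1 probe set, all probe sets had the same sign of the tissue difference in 15 genes in APPsα-DM and in 16 in APLP2-KO mice.

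No receptor gene passed the threshold between APPsα-DM and APLP2-KO mice in hippocampus, in cortex, or in the difference between the tissues (0 of 33 each by limma, adjusted p at least 0.9998 in hippocampus, 0.9996 in cortex and 0.9998 for the difference). Of all genes, 0.011% passed in hippocampus, 0.011% in cortex and 0% in the difference. At an unadjusted p below 0.05 there were 2 members in hippocampus, 3 in cortex and 1 in the difference, beside 4.02%, 4.57% and 3.41% of all genes. The 95% confidence intervals of the 33 differences stayed within -0.92 to 0.73 in hippocampus and -0.63 to 0.89 in cortex. Of the 33 intervals, 29 in hippocampus and 30 in cortex lay within 0.5 log2 units on either side of 0. The members' median difference was -0.06 in hippocampus and -0.01 in cortex, against 0.01 and 0.00 over all genes, and 14 and 15 of the 33 were above 0.

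**Figure D5:**
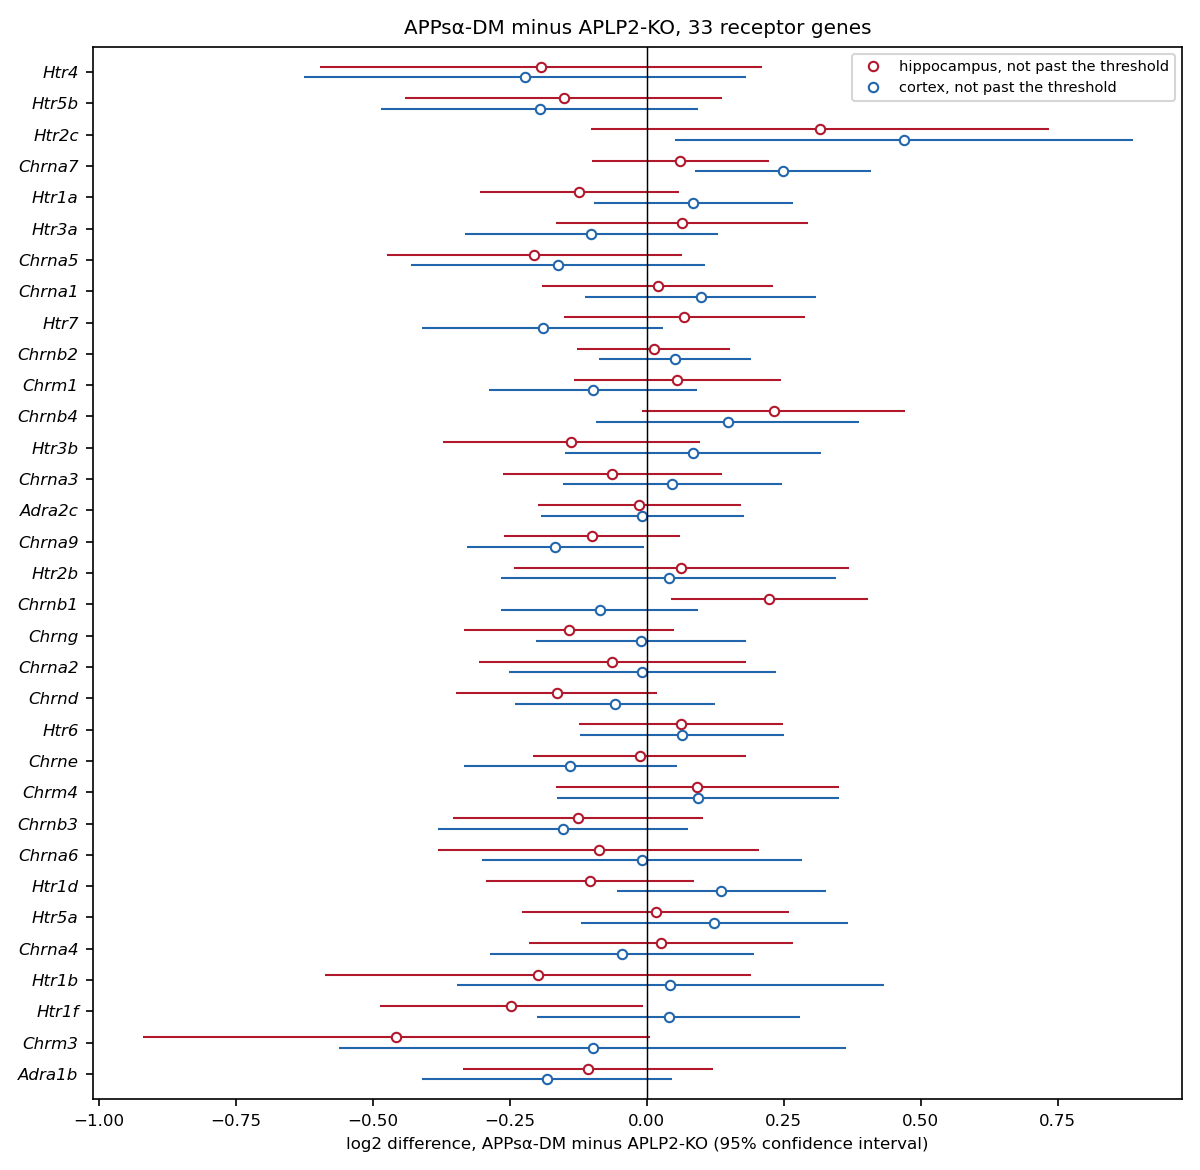
Difference in log2 signal, APPsα-DM minus APLP2-KO, of the 33 receptor genes in hippocampus and in cortex, with 95% confidence intervals from limma (3 arrays a group); open points did not pass the threshold. The points lie on both sides of 0, between -0.46 and 0.32 in hippocampus and between -0.22 and 0.47 in cortex.

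The 4 members with the smallest p in hippocampus were Chrnb1, Htr1f, Chrm3 and Chrnb4. Chrnb1 read 3.84, 3.76 and 3.82 in APPsα-DM hippocampus, against 3.55, 3.66 and 3.53 in APLP2-KO hippocampus, without overlap, at a mean of 3.70 that lay below the lower quartile of probe sets (0.22 ± 0.08, unadjusted p = 0.0190). Chrnb4 read 4.69, 4.30 and 4.35 in APPsα-DM hippocampus, against 4.23, 4.25 and 4.16 in APLP2-KO hippocampus, also without overlap (0.23 ± 0.11, unadjusted p = 0.0566). Without APPsα-DM hippocampus 1 the Chrnb4 difference was 0.11. On that array the second Chrnb4 probe set read 5.42, against 3.58 to 3.99 on the other arrays, and the mean over 12 smooth muscle and leptomeninges markers was 7.88, against 6.74 to 7.30. The choroid plexus marker mean was also highest on that array, at 8.37, against 4.85 to 7.97 on the other arrays. The part of either group of cells in the Chrnb4 value was not tested. The arrays of Htr1f, given above, overlapped (-0.25 ± 0.11, unadjusted p = 0.0451). Those of Chrm3 touched at 5.10 and likewise did not separate (-0.46 ± 0.21, unadjusted p = 0.0524), with a difference of -0.23 without APPsα-DM hippocampus 2. Chrnb1 and Chrnb4 were the only members whose APPsα-DM arrays all lay above the APLP2-KO arrays in hippocampus, where 5.13% of all genes did. The opposite order was found in 5 members, Chrnd, Htr1a, Chrna9, Htr4 and Chrna2, and in 5.34% of all genes, with differences of -0.06 to -0.19.

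In cortex the smallest p values belonged to Chrna7, Htr2c, Chrna9 and Htr7. Chrna7 read 8.59, 8.49 and 8.59 in APPsα-DM cortex, against 8.23, 8.44 and 8.25 in APLP2-KO cortex, and was the 1 member higher without overlap (4.25% of all genes). Its difference was 0.25 ± 0.07 (1.19-fold, unadjusted p = 0.0055), but its other probe set differed by -0.07. Htr2c overlapped between the genotypes: it read 8.72, 9.19 and 9.28 in APPsα-DM cortex, against 8.42, 8.35 and 9.01 in APLP2-KO cortex (0.47 ± 0.19, unadjusted p = 0.0305), and each group held 1 of the arrays high in Ttr. Without these arrays its difference was 0.62 (adjusted p = 0.926).

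Chrna9 read 3.83, 3.83 and 3.74 in APPsα-DM cortex, against 3.83, 4.02 and 4.05 in APLP2-KO cortex (-0.17 ± 0.07, unadjusted p = 0.0437), where the groups touched at 3.83. Htr7 read 7.10, 6.97 and 6.68 in APPsα-DM cortex, against 7.15, 7.13 and 7.04 in APLP2-KO cortex, with overlap (-0.19 ± 0.10, unadjusted p = 0.0847). Chrm1 was the 1 member lower without overlap in cortex (5.56% of all genes). It read 9.93, 9.94 and 9.92 in APPsα-DM cortex, against 9.96, 10.02 and 10.09 in APLP2-KO cortex, a difference of -0.10 ± 0.09.

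In the difference between the genotype effects, hippocampus minus cortex, Chrnb1 (0.31 ± 0.12, unadjusted p = 0.0212), Htr1d (-0.24 ± 0.12, unadjusted p = 0.0767), Htr1f (-0.29 ± 0.16, unadjusted p = 0.0906) and Htr7 (0.26 ± 0.14, unadjusted p = 0.0953) had the smallest p. Chrnb1 in cortex read 3.75, 3.77 and 3.47 in APPsα-DM and 3.80, 3.75 and 3.69 in APLP2-KO mice, which overlapped. Htr1d read 5.54, 5.27 and 5.49 in APPsα-DM hippocampus, against 5.48, 5.54 and 5.59 in APLP2-KO hippocampus. In cortex it read 5.74, 5.86 and 5.97 in APPsα-DM, against 5.69, 5.81 and 5.66 in APLP2-KO mice, so that the genotypes overlapped in both tissues. Htr7 in hippocampus read 7.11, 7.36 and 7.18 in APPsα-DM and 7.17, 7.16 and 7.11 in APLP2-KO mice. Over the 19 genes with more than 1 probe set, all probe sets had the same sign of the genotype difference in 11 genes in hippocampus and in 6 in cortex.

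The enzymes and transporters of the same transmitters showed no genotype difference past the threshold either (0 of 15 measured genes in each tissue). Tph2, the serotonin-making enzyme of neurons, differed by -0.38 ± 0.10 in cortex (unadjusted p = 0.00227), at a mean of 3.36 in APPsα-DM and 3.73 in APLP2-KO cortex. Tph1, the enzyme of peripheral tissue and pineal gland, differed by 1.39 ± 0.52 in hippocampus (unadjusted p = 0.0189), where it averaged 4.88 ± 1.55 (SD, 3 arrays) in APPsα-DM and 3.48 ± 0.04 in APLP2-KO mice. Between tissues, Slc18a2, the vesicular transporter of monoamines, was higher in hippocampus of both genotypes (0.74 ± 0.18, adjusted p = 0.0196, in APPsα-DM and 0.75 ± 0.18, adjusted p = 0.0162, in APLP2-KO mice). In APPsα-DM mice Tph2, with a cortex mean of 3.36 below the lower quartile of probe sets (4.23), was higher in hippocampus as well (0.41 ± 0.10, adjusted p = 0.0163). Slc18a3 and Slc5a7, the vesicular acetylcholine transporter and the choline transporter of cholinergic terminals, were lower there (-0.89 ± 0.16 and -0.45 ± 0.08, adjusted p = 0.00325 and 0.0022), and so was Th, the first enzyme of catecholamine synthesis (-0.96 ± 0.25, adjusted p = 0.0279). These 3 did not pass in APLP2-KO mice (-0.33, -0.19 and -0.27). Of 6 measured markers of cholinergic neurons, 3 were lower in APPsα-DM and 1 in APLP2-KO hippocampus, beside 7.34% and 9.7% of all genes. The list was drawn up for basal forebrain, but it cannot place these neurons there, since the cortex pieces held striatal markers too. Slc18a3 and Slc5a7 are on that list and among the 3, so the count adds nothing to their own result. Lhx8, a transcription factor of cholinergic neurons, was lower in both genotypes (-1.50, adjusted p = 0.00204, and -1.14, adjusted p = 0.0107). Chat, Gbx1 and Ngfr passed in neither genotype (-0.17, -0.16 and 0.02 in APPsα-DM, and -0.10, -0.18 and -0.02 in APLP2-KO mice). The mean over the 6 markers, Slc18a3 and Slc5a7 included, was 4.32 to 4.45 in APPsα-DM and 4.36 to 4.49 in APLP2-KO hippocampus. In cortex it was 4.78 to 5.004 in APPsα-DM and 4.75 to 4.79 in APLP2-KO mice (exact permutation p = 0.1 between tissues in each genotype). The part of such cells in these differences was not tested.

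Of 12 measured chaperones, anchors and modulators of nicotinic receptors, none differed between genotypes by limma. Musk, the kinase that anchors the muscle receptor, differed by 0.33 ± 0.08 in cortex (unadjusted p = 0.00184). Between tissues, 3 were higher and 4 lower in hippocampus of APPsα-DM mice, beside 6.59% and 7.34% of all genes. In APLP2-KO mice 2 were higher and 4 lower, beside 6.78% and 9.7% of all genes. Ly6h and Lypd1, which dampen nicotinic responses, were higher in both (0.46 and 0.51, and 0.69 and 0.60, for APPsα-DM and APLP2-KO mice); Lypd1 also stands in the list of CA field markers. Ric3, a chaperone of Chrna7, was higher in APPsα-DM hippocampus (0.52 ± 0.12, adjusted p = 0.0119) and did not pass in APLP2-KO mice (0.33, adjusted p = 0.094). Lypd6b, a relative of Lypd6, was lower by -1.01 ± 0.11 (2.02-fold, adjusted p = 6.13e-05) in APPsα-DM and by -1.08 ± 0.11 (2.11-fold, adjusted p = 3.13e-05) in APLP2-KO mice, with Lypd6, Musk and S100a10 lower in both. S100a10 encodes the protein p11, which binds Htr1b and Htr4.

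Of 29 measured genes for G proteins, adenylyl cyclases, phospholipases C beta, receptor kinases and arrestins, none passed between genotypes, and between tissues 3 were higher and 8 lower in hippocampus in each genotype. The shares of all genes were 6.59% higher and 7.34% lower in APPsα-DM hippocampus, and 6.78% and 9.7% in APLP2-KO hippocampus. Plcb4, a phospholipase C, was lower by -1.27 ± 0.10 in APPsα-DM (adjusted p = 5.8e-06) and by -1.38 ± 0.10 in APLP2-KO hippocampus (adjusted p = 2.46e-06). Adcy5 and Gnal, the adenylyl cyclase and the stimulatory G protein subunit of striatal neurons, were lower by -1.11 and -0.99 in APPsα-DM and by -1.02 and -0.91 in APLP2-KO mice. Gnaq, the G protein subunit shared by Htr2c, Adra1b, Chrm1 and Chrm3, was higher by 0.32 (adjusted p = 0.0147) and 0.28 (adjusted p = 0.0276). Adcy9 was higher too (0.43 and 0.31), and Grk5, Arrb1, Adcy7 and Adcy2 were lower in both genotypes. The striatal markers were lower in hippocampus along with Adcy5, Gnal, Slc18a3 and Slc5a7, and their part in these differences was not tested.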

How the data were processed

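RNA of 12 tissue pieces was hybridised to 12 Affymetrix arrays. The deposited values are log2 probe set signals, made with RMA and affy per the submitters' processing notes (versions not given in the sources used here). Of 45101 probe sets, 64 controls were left out. The platform annotation named 1 gene for 34945 probe sets, several for 932 and none for 9160.

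With limma 3.58.1 in R 4.3.3, lmFit fitted the 4 group means (8 residual degrees of freedom), and eBayes added 4.25 prior degrees of freedom. Contrasts were APPsα-DM minus APLP2-KO per tissue, the difference between these effects, and hippocampus minus cortex per genotype. All p-values are two-sided, adjusted over 45037 probe sets, and the fit was tested on simulated data. The number of arrays limits the precision.

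Deviations of same-numbered tissues from their group means correlated at 0.109 to 0.155 in APLP2-KO mice and at 0.019 to 0.079 in APPsα-DM mice. Between genotypes, where a number cannot mark the same mouse, they correlated at 0.029 to 0.206 in hippocampus and -0.255 to -0.080 in cortex. These correlations therefore do not settle whether the numbers pair the tissues. The labels do not say what a number marks.

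The members and the lists of other genes were chosen with earlier results of these data known. Array values are given for the 4 members with the smallest p in each genotype comparison and for those past the threshold between tissues in both genotypes; array values of Chrm1 and of Chrm3 in both tissues were added after their values were seen. From the other lists, members past the threshold or with the smallest p are named. Gene names and promoters came from RefSeq (GRCm38.p6). Alternatives were a filter at a mean of 5, other scalings, a variance trend, fewer groups, a replicate block, single arrays left out, the arrays high in Ttr left out, a choroid plexus covariate and a gene's mean over all its probe sets.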

Additional observations from a re-analysis of the deposited data

How the results depend on the processing

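The genotype comparisons called 0 of the 33 members under every alternative run, including the replicate block and each of the 12 fits without 1 array (0 to 0 calls, with 1 to 4 members at an unadjusted p below 0.05 in hippocampus, 1 to 5 in cortex and 1 to 3 in the difference between tissues). For the genotype comparison within a tissue, the block paired same-numbered arrays of the 2 genotypes. Those arrays come from different mice, so that fit is no check of this result. Between tissues the count in APPsα-DM mice (12) was 10 to 13 when single arrays were left out and 10 with the choroid plexus covariate, and that in APLP2-KO mice (11) was 7 to 12 and 10. The lowest count, 7, was found without APLP2-KO cortex 3; the cause was not tested. With the replicate block the counts were 11 in APPsα-DM and 11 in APLP2-KO mice, of which 10 were shared with the fit without it; Chrm3 came in and Chrna1 was lost in APLP2-KO mice, and Htr5a was lost in APPsα-DM mice (adjusted p = 0.0714). The replicate block changed no other call. No tissue difference past the threshold changed sign. The difference between the genotype effects for Htr2c, -0.15 with all arrays and not past the threshold, was 0.02 without APPsα-DM hippocampus 2. Over the single members followed through these alternatives, 777 values kept their side of the threshold, 42 lost a call and 11 gained one. The 777 include the genotype comparisons, where no member passed in any alternative, so the tally is not a measure of how stable the tissue calls were. Calls were lost most often for Htr5a in APPsα-DM mice (12 of 21 alternatives) and for Chrna1 (11 of 20) and Htr1b (10 of 21) in APLP2-KO mice. The filter at a mean of 5 left 21 members to test. Differences of dim members are limited by their signal over background.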
